A study of Mus musculus with 8 samples.

Results

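The genes described here are 10 regulators of the stress pathway that runs through the transcription factors ATF4 and CHOP: Atf4, Ddit3 (which encodes CHOP), Trib3, Chac1, Ppp1r15a, Atf3, Atf5, Cebpg, Nupr1 and Vldlr. They were chosen by name, with the differences seen at 6 h in these same arrays already known, and each was read from the array row whose annotated gene symbol matched. Each of the 10 had exactly 1 such row among the 19939 genes tested. The cells were peritoneal macrophages, obtained by lavage from wild-type mice of the C57/Bl6 background, pooled from 10 mice and kept overnight in medium with fetal calf serum. They were then cultured without further addition (basal) or with 1 µg/ml of HRG, a recombinant form of the plasma protein histidine-rich glycoprotein. Total RNA was taken at 6 h and at 24 h, which gave 4 groups (basal 6 h, HRG 6 h, basal 24 h, HRG 24 h) of 2 samples, each on its own Affymetrix array. All groups therefore share the pool, the overnight culture and the serum, and no sample from before the treatment was analysed here. The p-values below measure only the spread between samples drawn from this pool, which may be technical, and the 8 arrays limit the precision. The microarray measured transcripts, and protein or phosphorylation was not measured in the data analysed here.

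Background on the pathway helps in reading the genes. When amino acids run short, unfolded protein builds up in the endoplasmic reticulum, haem is lacking or viral RNA is sensed, the kinases GCN2, PERK, HRI and PKR phosphorylate the initiation factor eIF2, which lowers general translation while Atf4 messenger RNA is translated more. ATF4 then switches on genes for amino acid synthesis, uptake and tRNA charging, together with further factors such as CHOP, ATF3 and ATF5, often as a dimer with the C/EBP protein encoded by Cebpg. The pathway holds its own brakes: GADD34, the product of Ppp1r15a, brings a phosphatase to eIF2, and the pseudokinase encoded by Trib3 restrains ATF4 and CHOP. Chac1 encodes an enzyme that degrades glutathione, Nupr1 a small stress-induced chromatin protein, and Vldlr a lipoprotein receptor whose gene is a described ATF4 target.

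Promoter windows of RefSeq (build GRCm38.p6, 250 bases before to 50 bases after each gene's start) matched all 10 genes and were searched on both strands for the composite element of ATF4 and C/EBP proteins, TGATGNAA. It occurred in 5 of the 10 (Trib3, Chac1, Atf3, Nupr1 and Vldlr), against 4.51% of the 27025 genes with a window. The cyclic AMP response element, TGACGTCA, occurred in Ppp1r15a alone among the 10, against 2.03% of genes. The ER stress response element, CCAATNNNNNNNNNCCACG, occurred in 0 of the 10, against 0.137% of genes. The sequences that hold a match are printed below because 5 of them carry the composite element through which ATF4 is known to act, and that of Ppp1r15a carries the cyclic AMP response element. Capitals mark the match, in the gene's own direction, and a match is a description of letters, not evidence of binding.
Atf3, chr1:191183334-191183583, minus strand: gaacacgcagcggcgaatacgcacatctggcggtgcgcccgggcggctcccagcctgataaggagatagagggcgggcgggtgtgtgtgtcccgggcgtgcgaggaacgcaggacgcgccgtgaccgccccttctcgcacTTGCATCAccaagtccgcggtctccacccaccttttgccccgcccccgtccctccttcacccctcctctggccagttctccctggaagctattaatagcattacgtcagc
Chac1, chr2:119350992-119351241, plus strand: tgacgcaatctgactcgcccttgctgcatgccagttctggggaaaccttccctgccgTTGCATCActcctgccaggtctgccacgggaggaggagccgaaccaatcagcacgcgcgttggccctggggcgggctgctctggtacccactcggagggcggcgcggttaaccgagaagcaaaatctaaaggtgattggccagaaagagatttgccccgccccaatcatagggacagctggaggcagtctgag
Nupr1, chr7:126625471-126625720, minus strand: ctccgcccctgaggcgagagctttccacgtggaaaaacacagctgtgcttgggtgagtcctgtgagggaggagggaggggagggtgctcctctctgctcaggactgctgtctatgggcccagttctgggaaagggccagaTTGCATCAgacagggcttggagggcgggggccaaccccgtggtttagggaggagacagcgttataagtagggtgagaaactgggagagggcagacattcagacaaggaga
Vldlr, chr19:27216770-27217019, plus strand: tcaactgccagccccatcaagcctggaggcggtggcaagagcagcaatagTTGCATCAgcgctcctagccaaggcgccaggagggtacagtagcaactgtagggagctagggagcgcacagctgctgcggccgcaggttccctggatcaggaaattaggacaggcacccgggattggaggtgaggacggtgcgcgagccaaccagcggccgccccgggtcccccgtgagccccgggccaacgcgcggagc
Trib3, chr2:152344033-152344310, minus strand: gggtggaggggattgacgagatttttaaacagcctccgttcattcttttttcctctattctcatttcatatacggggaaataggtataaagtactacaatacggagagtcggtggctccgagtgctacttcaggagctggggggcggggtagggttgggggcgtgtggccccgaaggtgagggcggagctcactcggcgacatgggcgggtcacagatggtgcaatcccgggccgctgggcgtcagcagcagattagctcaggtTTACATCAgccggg
Ppp1r15a, chr7:45526269-45526518, minus strand: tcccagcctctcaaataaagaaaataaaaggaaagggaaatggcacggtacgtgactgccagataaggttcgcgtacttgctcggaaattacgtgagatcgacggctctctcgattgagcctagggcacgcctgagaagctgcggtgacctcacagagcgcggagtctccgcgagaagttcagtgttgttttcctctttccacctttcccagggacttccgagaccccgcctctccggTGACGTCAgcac
Atf3, Chac1, Nupr1 and Vldlr carry the identical match TTGCATCA, the other strand of the element. It begins 110 bases before the start in Atf3 and in Nupr1, 193 bases before it in Chac1 and 200 bases before it in Vldlr. In Trib3 the match is TTACATCA and lies just after the start. In Ppp1r15a TGACGTCA begins 12 bases before the start. The levels below show that genes with the same match shared a pattern only in part. Among those with TTGCATCA, Chac1 and Nupr1 were both highest in basal 6 h (r = 0.88 over the 8 arrays), and Atf3 was highest in basal 24 h. Chac1 ranged from 7.95 to 9.48, and Vldlr, whose level was below the median gene, from 6.15 to 6.38. The part of the element in these levels was not tested.

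Array medians lay between 7.18 and 7.29 on the log2 scale, and replicate arrays correlated at r = 0.9963 to 0.9976 across rows, which are not independent. All 8 macrophage markers measured (among them Csf1r and Cd68) had mean levels of 10.8 to 13.9, above the median gene. Markers of other peritoneal cells were also detected and moved between groups. The summed linear level of 7 measured B cell markers was 4060 to 4190 in basal 6 h, 3080 to 3130 in HRG 6 h, 2100 to 2730 in basal 24 h and 3250 to 3930 in HRG 24 h. For 6 mast cell markers it was 6860 to 7510, 6410 to 6850, 4770 to 6010 and 7080 to 8790 in the same order. For 8 T and NK cell markers it was 1540 to 1910, 1110 to 1150, 1120 to 1610 and 1540 to 1730, and for 6 dendritic cell markers 2100 to 2290, 1670 to 1680, 1280 to 1410 and 1430 to 2030. For 6 neutrophil markers it was 598 to 615, 699 to 717, 644 to 925 and 601 to 630, and for 6 markers of mesothelium and fibroblasts 888 to 1040, 994 to 999, 1010 to 1030 and 1130 to 1190. At 6 h the B cell, mast cell, T and NK cell and dendritic cell sums were lower with HRG without overlap, the mast cell sum by a small margin. Both HRG arrays were also below both basal arrays for 9 of the 10 genes, against 18.3% of all genes. The neutrophil sum was higher with HRG at 6 h without overlap. Single markers were mixed at 6 h in most of these lists. With HRG, 2 of 8 T and NK cell, 2 of 6 dendritic cell and 1 of 6 mast cell markers were higher. The others in these 3 lists were lower. Of 6 neutrophil markers, 4 were higher and 2 lower, and all 7 B cell markers were lower. At 24 h the B cell, mast cell, dendritic cell and mesothelium and fibroblast sums were higher with HRG without overlap, and the neutrophil sum was lower. Single markers were mixed at 24 h in some of these lists. Those of mesothelium and fibroblasts split into 5 higher and 1 lower with HRG. Of 6 dendritic cell markers, 3 were higher with HRG and 3 lower, and Cd209a varied widely in HRG 24 h (SD 1.6). Of 6 neutrophil markers, 4 were higher and 2 lower, and S100a8 varied widely in basal 24 h (SD 0.74). The summed level of the 8 macrophage markers was also higher with HRG at 24 h (70200 to 70600 against 62500 to 62900). Their part in the results below was not tested, and in such bulk samples fewer cells of a type and less RNA per cell cannot be told apart.

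Basal 6 h had the highest mean of the 4 groups for 8 of the 10 genes, and HRG 24 h the lowest for 6. Levels below are deposited log2 values of the 2 arrays of a group and are compared only within a gene. Atf4, the factor at the head of the pathway, measured 9.83 and 9.89 in basal 6 h, 9.42 and 9.33 in HRG 6 h, 9.31 and 9.54 in basal 24 h, and 9.06 and 9.22 in HRG 24 h. Its basal 6 h arrays were above all others, and HRG 6 h and basal 24 h overlapped. Ddit3 measured 10.94 and 10.77 in basal 6 h, 9.79 and 9.54 in HRG 6 h, 9.24 and 9.33 in basal 24 h, and 8.96 and 9.04 in HRG 24 h. Its 4 groups were stepped, with no overlap between any of them. Among the brakes, Ppp1r15a measured 9.94 and 9.83 in basal 6 h, 8.83 and 8.60 in HRG 6 h, 8.49 and 8.88 in basal 24 h, and 8.43 and 8.27 in HRG 24 h. Basal 6 h stood apart above, and the range of HRG 6 h lay inside that of basal 24 h. Trib3 measured 10.50 and 10.64 in basal 6 h, 9.68 and 9.35 in HRG 6 h, 9.31 and 9.42 in basal 24 h, and 8.47 and 8.49 in HRG 24 h. Here both ends stood apart: basal 6 h was highest, HRG 24 h was lowest, and the groups between them overlapped. Chac1 measured 9.48 and 9.19 in basal 6 h, 8.33 and 8.15 in HRG 6 h, 8.16 and 8.30 in basal 24 h, and 8.08 and 7.95 in HRG 24 h. Its HRG 6 h and basal 24 h arrays overlapped and both lay below basal 6 h.

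**Figure D1:**
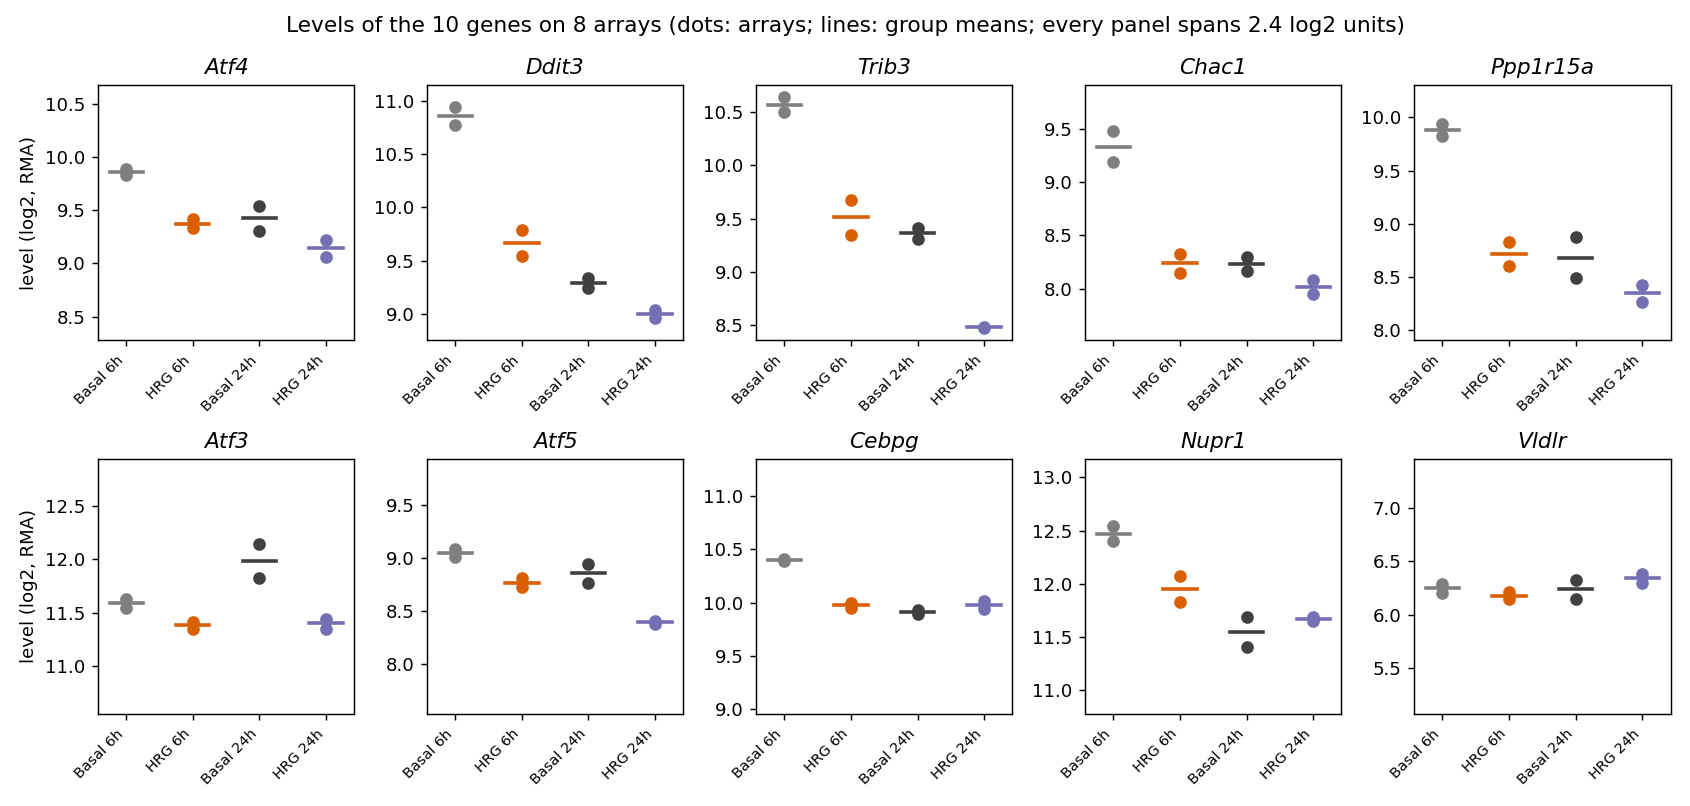
Deposited log2 level (vertical axis) of the 10 genes on each of the 8 arrays, by group (horizontal axis), with dots for arrays, lines for the mean of 2 arrays and panels of equal height. Ddit3 steps down from a mean of 10.86 in basal 6 h through 9.67 and 9.29 to its lowest mean in HRG 24 h, whereas the Vldlr arrays all lie between 6.15 and 6.38.

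Atf3, a repressor induced by many stresses, measured 11.54 and 11.63 in basal 6 h, 11.35 and 11.41 in HRG 6 h, 11.82 and 12.14 in basal 24 h, and 11.35 and 11.44 in HRG 24 h. It was the only one of the 10 with its highest level in basal 24 h. Atf5, a relative of ATF4, measured 9.01 and 9.08 in basal 6 h, 8.81 and 8.72 in HRG 6 h, 8.77 and 8.94 in basal 24 h, and 8.38 and 8.40 in HRG 24 h. Its HRG 24 h arrays were below the other 6. Cebpg measured 10.41 and 10.39 in basal 6 h, 10.00 and 9.95 in HRG 6 h, 9.93 and 9.89 in basal 24 h, and 9.94 and 10.02 in HRG 24 h. Its basal 6 h arrays were above all others and its basal 24 h arrays below all others, the latter by a small margin, and the HRG groups overlapped. Nupr1 measured 12.54 and 12.40 in basal 6 h, 12.07 and 11.83 in HRG 6 h, 11.69 and 11.41 in basal 24 h, and 11.65 and 11.69 in HRG 24 h. It was lower at 24 h than at 6 h on every array, and its basal 24 h and HRG 24 h arrays overlapped. Vldlr measured 6.21 and 6.29 in basal 6 h, 6.15 and 6.21 in HRG 6 h, 6.15 and 6.32 in basal 24 h, and 6.30 and 6.38 in HRG 24 h. Its levels were below the median level of all genes (7.48), and its HRG 24 h arrays were above all 6 h arrays, while the other 3 groups overlapped and basal 24 h also overlapped HRG 24 h.

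At 6 h, HRG samples were below basal samples in mean for all 10 genes, and for 9 of them both HRG arrays were below both basal arrays (Vldlr overlapped). These differences chose the genes, so they are given as a description, with the standard error (SE) of the limma fit across all 8 arrays and no test. The difference, HRG minus basal on the log2 scale, was -1.19 ± 0.11 for Ddit3, 2.28-fold lower. It was -1.17 ± 0.13 for Ppp1r15a (2.25-fold), -1.09 ± 0.12 for Chac1 (2.13-fold) and -1.06 ± 0.12 for Trib3 (2.08-fold). These genes encode CHOP, the glutathione-degrading enzyme and both brakes. Atf4 itself differed less, by -0.49 ± 0.11, next to Nupr1 at -0.52 ± 0.12 and Cebpg at -0.42 ± 0.09. Atf5 differed by -0.28 ± 0.10, Atf3 by -0.21 ± 0.11 and Vldlr by -0.07 ± 0.10. Of the 10, 5 were past an adjusted p of 0.05 as lower (Ddit3, Ppp1r15a, Chac1, Trib3 and Cebpg) and 0 as higher, beside 0.817% and 0.431% of all genes. Both HRG arrays were below both basal arrays for 18.3% of all genes. The call of Cebpg was lost with any 1 of the 8 arrays left out. Nothing is read from these counts, since the genes were picked with them known.

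**Figure D2:**
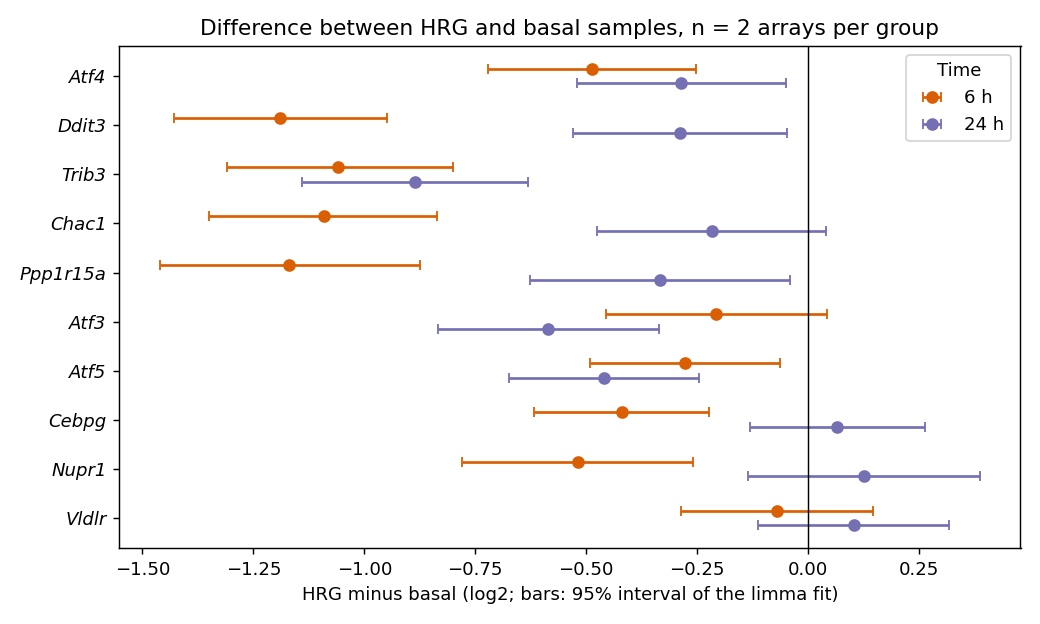
Difference between HRG and basal samples (horizontal axis, log2, HRG minus basal) for each gene at 6 h and at 24 h, with points for the estimate and bars for the 95% interval of the limma fit, n = 2 arrays per group. Ddit3 moves from -1.19 at 6 h to -0.29 at 24 h, while Trib3 stays at -1.06 and -0.89.

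The 24 h differences were taken from other arrays than the differences by which the genes were chosen. Their SE and p-values, however, came from the fit across all arrays, those of the earlier time included. The genes were also chosen with earlier results of these data known, so the 24 h tests are not fully independent of the choice. At 24 h Trib3, Atf3 and Atf5 fell with HRG, and none of the 10 rose. Trib3 fell by 0.89 ± 0.12 (SE) on the log2 scale, 1.85-fold (limma, Benjamini-Hochberg adjusted p = 0.0014). Atf3 fell by 0.58 ± 0.11 (1.5-fold, limma adjusted p = 0.013). Atf5 fell by 0.46 ± 0.10 (1.38-fold, limma adjusted p = 0.022). Thus 3 of the 10 passed as lower, against 1.05% of all genes, and 0 as higher, against 2.43%. The 2 arrays with HRG were below both basal arrays for 7 of the 10 (all but Cebpg, Nupr1 and Vldlr), against 21.1% of all genes. The median difference was -0.29 over the 10 genes and -0.02 over all genes. Without basal 24 h replicate 2, HRG 24 h replicate 1 or HRG 24 h replicate 2, only Trib3 passed. Atf3 then measured -0.42, -0.54 and -0.63 (adjusted p = 0.14, 0.16 and 0.061), and Atf5 -0.37, -0.45 and -0.47 (adjusted p = 0.21, 0.19 and 0.11).

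The genes that stood furthest apart at 6 h did not pass at 24 h, apart from Trib3. Ddit3 differed by -0.29 ± 0.11 (adjusted p = 0.26, 95% interval -0.53 to -0.05) and Ppp1r15a by -0.33 ± 0.13 (adjusted p = 0.29, interval -0.63 to -0.04). Atf4 differed by -0.28 ± 0.11 (adjusted p = 0.25, interval -0.52 to -0.05) and Chac1 by -0.22 ± 0.12 (adjusted p = 0.53, interval -0.48 to 0.04). For Ddit3, Ppp1r15a and Atf4 the unadjusted interval lay below 0, but the adjusted p did not pass. Cebpg, Nupr1 and Vldlr were nominally higher, at 0.07 ± 0.09, 0.13 ± 0.12 and 0.10 ± 0.10, with adjusted p of 0.89, 0.82 and 0.81 in the limma fit.

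Whether the HRG difference itself changed between the times was tested as the 24 h difference minus the 6 h difference. This contrast contains the 6 h difference by which the genes were chosen, which favours values above 0, so it is no independent support. It was 0.90 ± 0.16 for Ddit3 (limma adjusted p = 0.017) and 0.88 ± 0.17 for Chac1 (limma adjusted p = 0.027). Both had a smaller HRG difference at 24 h than at 6 h. Ppp1r15a, at 0.83 ± 0.19, did not pass (adjusted p = 0.055), nor did Nupr1 at 0.64 ± 0.17 or Cebpg at 0.49 ± 0.13 (both 0.10). Trib3 behaved otherwise: its contrast was 0.17 ± 0.17 (adjusted p = 0.79, interval -0.19 to 0.53), so a change of up to 0.53 cannot be told from 0 here. Atf3 had the opposite sign, at -0.38 ± 0.16 (adjusted p = 0.41). In all, 2 of the 10 passed as higher, against 1.02% of all genes, and 0 as lower, against 0.451%.

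These calls rested on few arrays. Without HRG 6 h replicate 2, HRG 24 h replicate 1 or HRG 24 h replicate 2, 0 of the 10 passed: Ddit3 then measured 0.78, 0.94 and 0.86 (adjusted p = 0.09, 0.076 and 0.063). Chac1 measured 0.79, 0.81 and 0.94 without those arrays (adjusted p = 0.13, 0.15 and 0.058). Chac1 was also lost without basal 6 h replicate 1 (0.73, adjusted p = 0.066), basal 24 h replicate 1 (0.81, 0.057), basal 24 h replicate 2 (0.94, 0.055) and HRG 6 h replicate 1 (0.97, 0.051).

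In basal culture, without HRG, 7 of the 10 genes fell from 6 h to 24 h. This comparison shares its basal 6 h arrays with the 6 h comparison, so it is not independent of the choice of genes either. The genes were chosen for basal 6 h levels above those with HRG, which favours decreases here. The values and counts are therefore no independent support. Ddit3 fell by 1.57 ± 0.11, 2.97-fold (limma adjusted p = 9.6e-06). Trib3 fell by 1.21 ± 0.12 (7.4e-05), Ppp1r15a by 1.2 ± 0.13 (0.00018) and Chac1 by 1.10 ± 0.12 (0.00014). Nupr1, which had differed only moderately with HRG, fell by 0.92 ± 0.12 (5e-04). Cebpg fell by 0.49 ± 0.09 (0.0048) and Atf4 by 0.43 ± 0.11 (0.024). Atf5 (-0.19 ± 0.10, adjusted p = 0.32) and Vldlr (-0.01 ± 0.10, 0.98) did not pass, and Atf3 differed upward by 0.40 ± 0.11 without passing (0.051). Against these 7 lower and 0 higher stood 5.48% and 3.8% of all genes. The marker sums of B cells (2100 to 2730 against 4060 to 4190), mast cells (4770 to 6010 against 6860 to 7510) and dendritic cells (1280 to 1410 against 2100 to 2290) were also lower in basal 24 h than in basal 6 h without overlap. Single dendritic cell markers were mixed: 3 were higher and 3 lower, with Clec9a at 1.35 and Ccr7 at -1.16. The macrophage sum (62500 to 62900 against 56200 to 58700) and the neutrophil sum (644 to 925 against 598 to 615) were higher in basal 24 h without overlap. Of 6 neutrophil markers, however, 3 were higher and 3 lower, and S100a8 varied widely in basal 24 h (SD 0.74). Of 8 macrophage markers, 7 were higher and 1 lower. The other sums overlapped. The part of these cells was not tested. Atf4 no longer passed without basal 6 h replicate 1 (-0.47, adjusted p = 0.063), basal 6 h replicate 2 (-0.40, 0.078) or basal 24 h replicate 1 (-0.32, 0.21). Atf3 passed as higher without basal 24 h replicate 1 (0.56, 0.016).

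With HRG present the same interval of culture gave 3 decreases, in Trib3, Ddit3 and Atf5. It shares its HRG 6 h arrays with the 6 h comparison, in which the genes were chosen for low levels with HRG, so the choice works against decreases here and the values are not independent of it. Trib3 fell by 1.04 ± 0.12 (limma adjusted p = 0.00025). Ddit3 fell by 0.67 ± 0.11 (0.0032) and Atf5 by 0.37 ± 0.10 (0.04). Ppp1r15a (-0.37 ± 0.13, adjusted p = 0.14), Chac1 (-0.22 ± 0.12, 0.35) and Nupr1 (-0.28 ± 0.12, 0.22) did not pass. Neither did Atf4 (-0.23 ± 0.11, 0.27), Atf3 (0.02 ± 0.11, 0.97), Vldlr (0.16 ± 0.10, 0.43) or Cebpg, whose group means differed by less than 0.01. Of the 10, 3 passed as lower, against 2.87% of all genes, and 0 as higher, against 4.41%. Marker sums of macrophages, B cells, mast cells, T and NK cells, and mesothelium and fibroblasts were higher in HRG 24 h than in HRG 6 h without overlap. The neutrophil sum was lower without overlap, and the dendritic cell sums overlapped. Single markers were mixed, apart from the 8 of macrophages, which were all higher in HRG 24 h. Lower in HRG 24 h were 3 of 6 mast cell, 2 of 7 B cell and 2 of 8 T and NK cell markers. So were 1 of 6 markers of mesothelium and fibroblasts and 4 of 6 neutrophil markers. The part of these cells was not tested. Ddit3 did not pass without HRG 6 h replicate 1 (-0.55, adjusted p = 0.053), and Atf5 did not pass without HRG 6 h replicate 1 (-0.33, 0.26), HRG 6 h replicate 2 (-0.42, 0.12), HRG 24 h replicate 1 (-0.36, 0.19) or HRG 24 h replicate 2 (-0.38, 0.16).

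Across the 8 arrays, the levels of 8 of the genes varied together (r of 0.57 or above in each pair), and those of Atf3 and Vldlr did not. The 45 pairs had a median Pearson r of 0.80, from -0.39 to 0.99. These are descriptions over 8 arrays that fall into 4 groups and share 1 pool of cells. They include the 6 h arrays by whose difference the genes were chosen, so a high r between them is partly fixed by the choice and supports nothing. Chac1 and Ppp1r15a were the closest pair, at 0.99, and Ddit3 correlated at 0.97 with each of them and at 0.95 with Trib3. Atf5 was closest to Trib3, at 0.94. Atf3 correlated at -0.03 with Ddit3 and at 0.48 with Atf5, its highest value. Vldlr correlated at -0.27 with Ddit3. Over all genes, 3.25% had an r with Ddit3 of at least 0.9 in size.

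**Figure D3:**
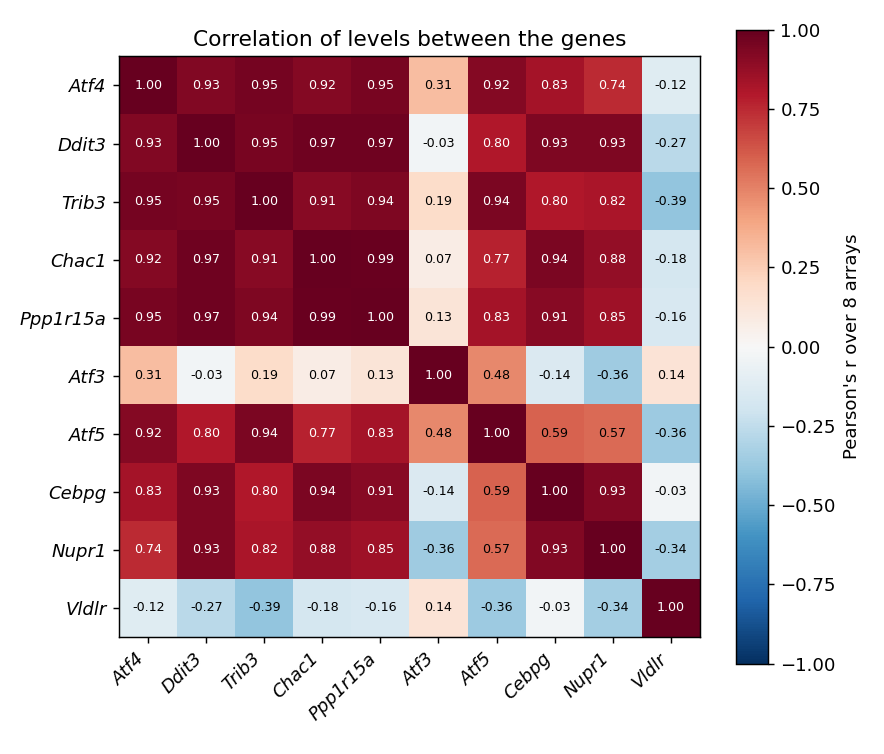
Pearson's r between the log2 levels of each pair of the 10 genes over 8 arrays (colour, from -1 to 1). Atf4, Ddit3, Trib3, Chac1 and Ppp1r15a form a block at 0.91 or above, whereas the rows of Atf3 and Vldlr stay at 0.48 or below.

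The genes whose pattern was most like that of Ddit3 were sought among 9511 named genes above the median level, by Pearson r over the same 8 arrays. The highest were Pck2 at 0.994, Tbc1d31 at 0.992, Ly75 at 0.991, Kdm4a at 0.99, Hipk1 at 0.989, Nfe2l1 at 0.987, and Tox2 and Ccdc47 at 0.986. Pck2, mitochondrial phosphoenolpyruvate carboxykinase, had group means of 8.88, 8.44, 8.29 and 8.19 in basal 6 h, HRG 6 h, basal 24 h and HRG 24 h. The lowest were Arg1 and Dmxl2 at -0.982, Emilin1 at -0.979, Pik3cg at -0.977, Mpi at -0.976, Gnb5 at -0.974, Uqcrh at -0.973 and Hk2 at -0.967. Arg1, the arginine-degrading enzyme arginase, ran opposite to Ddit3, with group means of 12.33, 13.03, 13.04 and 13.30 in the same order. These genes are the extremes of a search over all 9511, so the size of r is no test.

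The genes above and below the 10 in the pathway were read from lists that were also drawn up with results of these arrays known. Most genes named from them are those with the largest differences past the threshold at 6 h or at 24 h. Their p-values therefore describe the fit and are no independent support. Over all genes, 0.817% passed as lower and 0.431% as higher at 6 h. At 24 h these shares were 1.05% and 2.43%. Upstream, 0 of 15 measured genes for the eIF2 kinases, eIF2 and eIF2B passed at 6 h or at 24 h, with medians of 0.03 and -0.01. A count of 0 of 15 is near the shares over all genes. Eif2ak3, which encodes PERK, differed by 0.09 ± 0.10 at 6 h (limma adjusted p = 0.83). Downstream at 6 h, 7 of 13 genes of amino acid synthesis fell (median -0.66, against 0.02 for all genes), with no rise. Asns, asparagine synthetase, fell by 1.09 ± 0.13 (limma adjusted p = 0.0035) and the mitochondrial folate enzymes Mthfd2 and Aldh1l2 by 0.86 ± 0.12 (0.0055) and 0.86 ± 0.10 (0.0035). Cth, which makes cysteine, fell by 1.18 ± 0.19 (0.013), with basal 6 h arrays that differed widely (SD 0.51). Of 12 genes of tRNA charging, 6 fell (median -0.47), led by Yars (-0.86 ± 0.12), Cars (-0.71 ± 0.10), Sars (-0.69 ± 0.09) and Wars (-0.56 ± 0.11), with adjusted p of 0.0061, 0.0064, 0.0053 and 0.037. Of 10 amino acid transporters, 4 fell (median -0.34): Slc7a5 (-1.15 ± 0.14), Slc7a1 (-0.93 ± 0.14), Slc1a4 (-0.74 ± 0.13) and Slc38a2 (-0.61 ± 0.10), with adjusted p of 0.0035, 0.0099, 0.017 and 0.012. Of 11 growth, mTOR and secreted stress targets, 4 fell (median -0.21): Gadd45a (-1.11 ± 0.15), Ndrg1 (-0.94 ± 0.16), Sesn2 (-0.94 ± 0.16) and Herpud1 (-0.66 ± 0.11), with adjusted p of 0.0056, 0.02, 0.016 and 0.019. Without HRG 6 h replicate 2 these counts were 0 for synthesis, 0 for tRNA charging, 1 for transport and 1 for growth. Without basal 6 h replicate 1 the counts for synthesis, tRNA charging, transport and growth were all smaller. Those for synthesis, tRNA charging and transport were also smaller without HRG 6 h replicate 1, and that for growth without basal 6 h replicate 2. For tRNA charging the count was smaller too without basal 6 h replicate 2, HRG 24 h replicate 1 or HRG 24 h replicate 2. The medians stayed below 0 throughout, from -0.82 to -0.51 for synthesis and from -0.50 to -0.39 for tRNA charging.

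The other arms of the endoplasmic reticulum stress response run through IRE1 and ATF6, which act apart from eIF2. Of 23 genes of these arms, 1 fell at 6 h, Ern1, which encodes IRE1 (-0.65 ± 0.10, limma adjusted p = 0.012), and 0 rose. That call was lost without basal 6 h replicate 1 or HRG 6 h replicate 2. Hspa5, the chaperone BiP, differed by -0.02 ± 0.09 (0.97) and Xbp1, the factor of the IRE1 arm, by 0.11 ± 0.10 (0.80). Of 10 cell death and redox genes linked to CHOP, 0 passed at either time (medians -0.17 and -0.12). That count is near the shares over all genes, 0.817% lower and 0.431% higher at 6 h and 1.05% and 2.43% at 24 h. Among 11 relatives of the 10 genes, Cebpa (0.71 ± 0.10, adjusted p = 0.0083) and Lrp8 (0.62 ± 0.11, 0.017) rose and Jdp2 fell (-0.44 ± 0.09, 0.042). Jdp2 was not called with any 1 array left out. Of the 2 that rose, 0 were called without HRG 6 h replicate 1 or replicate 2, and 1 without either basal 6 h array.

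At 24 h, 3 synthesis genes, 2 tRNA charging genes, 1 transporter and 1 growth target fell. Over all genes, 1.05% passed as lower and 2.43% as higher. Asns (-0.75 ± 0.13), Mthfd1l (-0.62 ± 0.10) and Mthfd2 (-0.52 ± 0.12) fell among 13 synthesis genes, with limma adjusted p of 0.0073, 0.0043 and 0.029. Eprs (-0.61 ± 0.10, 0.0037) and Gars (-0.41 ± 0.10, 0.044) fell among 12 tRNA charging genes. Sqstm1, an autophagy receptor, fell by 0.43 ± 0.09 (0.024). The glycine transporter gene Slc6a9 fell by 2.14 ± 0.16, 4.39-fold (4.5e-05), the largest 24 h difference among the genes of the pathway lists. Lrp8, which encodes a close relative of the Vldlr receptor, fell by 1.05 ± 0.11 (0.00022) after its rise at 6 h, while Vldlr did not pass at either time. Without basal 24 h replicate 2 the counts were 0 for synthesis, 1 for tRNA charging and 0 for growth. Without HRG 24 h replicate 1 they were 1, 0 and 0, and without HRG 24 h replicate 2 they were 1, 1 and 0. The count for tRNA charging was 1 without either HRG 6 h array. Transport rose to 2 without either basal 6 h array and to 4 without basal 24 h replicate 1.

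**Figure D4:**
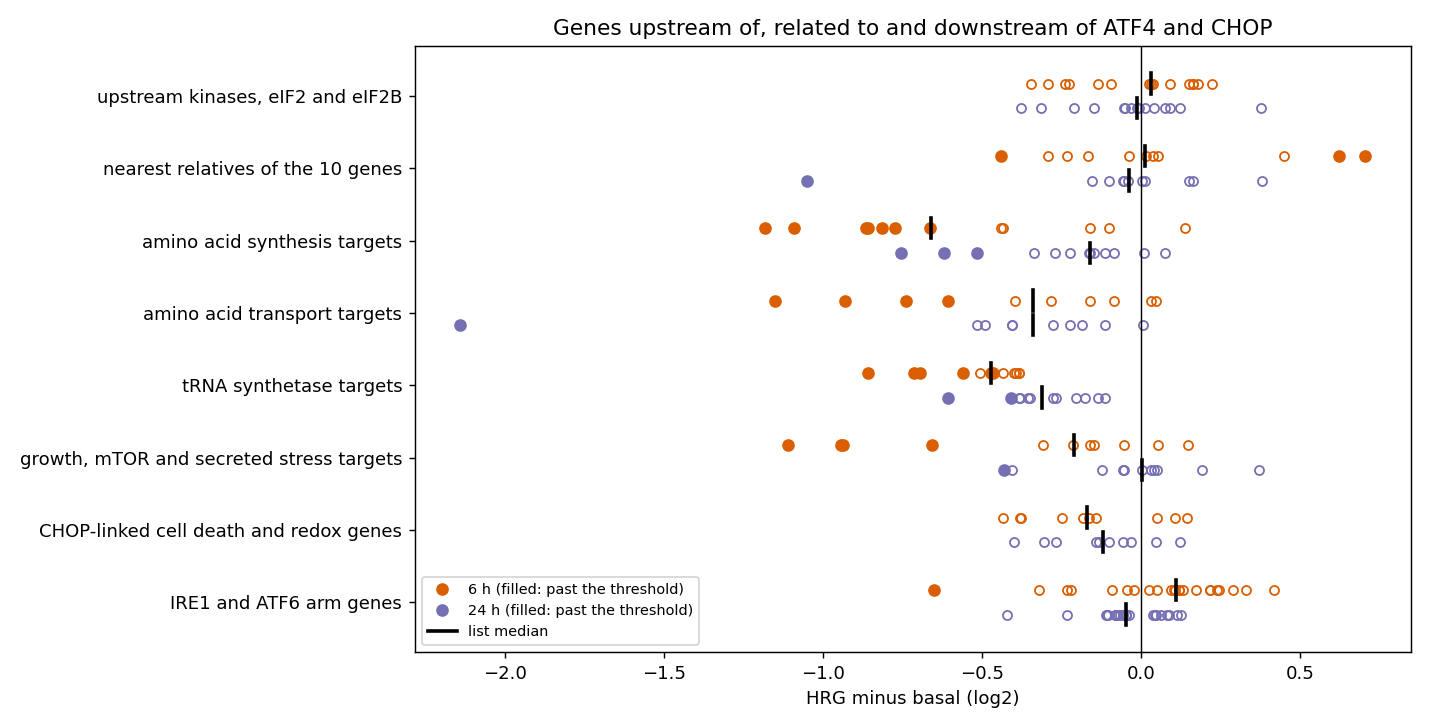
Genes of each pathway list by their HRG minus basal difference (log2) at 6 h and at 24 h, with a point per gene, filled where it passed the threshold, and a line for the list's median. At 6 h the amino acid synthesis list has a median of -0.66 and the list of eIF2 kinases, eIF2 and eIF2B a median of 0.03.

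Over the basal time course, 9 of 13 synthesis genes, 10 of 12 tRNA charging genes and 4 of 10 transporters fell, with medians of -0.73, -0.52 and -0.14, against 0.03 for all genes. Beside them 1 synthesis gene, Mthfd1l, rose, by 1.07 ± 0.10 (limma adjusted p = 5.2e-05), and 0 of the tRNA charging genes and transporters rose. Of 11 growth targets 4 fell and 1 rose, of 23 genes of the IRE1 and ATF6 arms 4 fell and 1 rose, and of 10 genes linked to CHOP 3 fell and 3 rose. The 15 upstream genes held 1 that fell and 0 that rose, and the 11 relatives 1 and 2. Over all genes, 5.48% fell and 3.8% rose. As with the 10 regulators, this shares the basal 6 h arrays with the 6 h comparison, so the counts are no independent support.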

How the data were processed

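RNA of 8 samples was measured on Affymetrix arrays. The deposited values are log2 levels that the authors made with Affymetrix Expression Console and RMA, per the submitters' processing notes, with versions and genome build not stated there. RMA gives all arrays nearly the same distribution, so a shift shared by all genes cannot be seen. Of 28853 rows, the 21789 with 1 annotated gene symbol were used (1621 had several, 5443 none), by the row with the highest mean per gene, which gave 19939 genes. The 10 genes, pathway lists and marker lists were chosen with earlier results of these data known.

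Group means of all 8 arrays were fitted with limma 3.58.1 in R 4.3.3 (4 residual and 7.81 prior degrees of freedom), with two-sided tests and Benjamini-Hochberg adjustment over all genes (threshold 0.05). The fit was tested on simulated data. Per list, up to 4 genes with the largest difference among those past the threshold at each time were named, and the 8 highest and 8 lowest correlations with Ddit3. Eif2ak3, Hspa5, Xbp1 and, for the basal time course, Mthfd1l were named after their values were seen. Alternatives were a replicate block, trended robust eBayes, quantile normalization, median centring, the dimmest 30% left out, averaged rows, a fit on the compared arrays alone, and each array left out; for the lists, the last was added after seeing the data. Same-numbered samples were not treated as pairs: their deviations correlated between -0.331 and 0.411.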

Additional observations from a re-analysis of the deposited data

Results flagged for a closer look

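The HRG difference of Ddit3 was smaller at 24 h than at 6 h by 0.90 on the log2 scale (0.902 before rounding), and that of Chac1 by 0.88 (0.877), each by the limma test of the difference of effects (adjusted p = 0.017 and 0.027). Both contrasts hold the 6 h difference by which these genes were chosen, and both calls were lost when some arrays were left out, so they are values to look at again.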

How the results depend on the processing

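Over 735 recomputed values of single genes, 665 kept their direction and call, 37 lost the call, 24 gained it, 9 moved without a call and 0 reversed. With arrays left out in turn, the number of the 10 genes lower at 24 h ranged from 1 to 3, the number with a higher difference of effects from 0 to 2, the number higher over the basal time course from 0 to 1, and the number lower over the HRG time course from 1 to 3. The number with a higher difference of effects was 5 under trended robust eBayes. The number higher over the basal time course was 1 (Atf3) with the replicate block, with trended robust eBayes, after quantile normalization, with the dimmest 30% left out, and with averaged rows. With the replicate block at 6 h, Cebpg lost its call and Nupr1 gained one. The causes were not tested. Trib3 passed at 24 h under all 15 alternatives, and Atf3 and Atf5 under 12 each. With 2 arrays per group, a list count can rest on 1 array.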
